A study of Mus musculus with 8 samples.

Results

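Capillary endothelial cells of the mouse heart were described in 4 single-cell libraries, 1 each from sham-operated hearts and from hearts taken 2, 4 and 6 weeks after transverse aortic constriction (TAC). The cells were chosen on measured values, by counts of unique molecular identifiers (UMIs, 1 per captured RNA molecule). Barcodes entered with between 200 and 6000 detected genes, a UMI total from 500 to 30000 and less than 15% of it mitochondrial. A kept barcode was a member if Pecam1, Cdh5 and Kdr together had at least 2 UMIs, Gpihbp1 and Rbp7 together at least 3, Npr3 and Vwf together fewer than 3, and Ptprc and Pdgfra none. These limits gave 823 cells of 27053 kept barcodes, out of 32473 in the files. The members numbered 164 in the sham library, 278 in the TAC-2w library, 265 in the TAC-4w library and 116 in the TAC-6w library.

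All mice were wild type C57BL/6J males, 8 weeks old at surgery. In TAC a suture tied round the aortic arch narrows it and loads the left ventricle with pressure, and sham mice had the same operation without the ligature. The time at which sham hearts were taken, and the number of hearts in a library, were not given in the sources used here. By the labels' batch entry sham and TAC-6w belong to 1 batch, whereas TAC-2w is alone in its batch and so is TAC-4w. TAC-6w is therefore compared with sham first below, and in the others the week after surgery and the batch cannot be told apart. Each group had 1 library, so no difference between groups could be tested, and intervals cover counting error only. The sources differ on whether nuclei (labels) or whole cells (methods) were loaded. The sham library held 86671674 UMIs, TAC-2w 78587992, TAC-4w 48278486 and TAC-6w 28793316. Wherever 4 values stand together below they begin with sham and go on by week. A heart section for spatial transcriptomics was deposited for each group as well. Pairs of libraries shared between 9 and 30 barcode sequences in the files, and no barcode sequence was a member in 2 libraries.

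Capillary endothelial cells line the smallest vessels of the heart muscle and pass oxygen and fuel to the cardiomyocytes. In the heart they are known for taking up fatty acids: GPIHBP1 carries lipoprotein lipase across the cell to the vessel lumen, CD36 takes up the released fatty acids, and the fatty acid binding proteins FABP4 and FABP5 carry them inside the cell. They also answer shear stress, hypoxia and inflammatory signals, and in pressure overload their number and function are thought to bear on how long the growing muscle stays supplied.

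The members carried the marker genes of their label. Gpihbp1, which the limits used, had a median of 6 UMIs per member in sham, 8 in TAC-2w, 9 in TAC-4w and 8 in TAC-6w, and Rbp7, a retinol binding protein also used by the limits, had medians of 2, 2, 2 and 3 in the same order. Fabp4 and Cldn5 played no part in the limits. Summed over members, Fabp4 stood at 19376 counts per 1000000 UMIs (CPM) in sham, 23747 in TAC-2w, 19537 in TAC-4w and 19890 in TAC-6w. It was at nearly the same level in 3 libraries and 1.23 times the sham level in TAC-2w (95% interval 1.2 to 1.25). Cldn5, which encodes the tight junction protein claudin-5, stood at 555 CPM in sham, 592 in TAC-2w, 546 in TAC-4w and 757 in TAC-6w. Kdr, the main receptor for VEGF and one of the 3 general endothelial genes in the limits, stood at 1059, 1160, 925 and 581 CPM.

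Shares of cells with a UMI were set beside the background from free RNA. Gpihbp1 was detected in 97.0% of members in sham, 96.8% in TAC-2w, 94.3% in TAC-4w and 87.9% in TAC-6w. It was in 2.1%, 1.8%, 1.9% and 0.1% of B cell barcodes. The limits used Gpihbp1, so its share in members follows largely from them, and only the B cell shares are read, as background. Fabp4 was in every member but 1, and also in 29.2%, 41.5%, 32.9% and 8.6% of fibroblast barcodes, so its detection alone marks no cell. Cldn5 was in 49.4%, 52.9%, 61.1% and 59.5% of members. Thinning to 2000 UMIs left out the 44, 73, 15 and 14 members with fewer, and Cldn5 was then in 43.3%, 42.9%, 43.2% and 55.9% of the remaining 120, 205, 250 and 102. The median UMI count of members was 3972.5 in sham, 3106 in TAC-2w, 6449 in TAC-4w and 3505.5 in TAC-6w, while all kept barcodes had medians of 9250.5, 10856, 4484 and 4828. TAC-2w members were the furthest below their library's median, and Car4, which the limits did not use, was still among their 10 leading genes by fold. The median mitochondrial share of members was 8.32%, 8.44%, 7.98% and 6.71%.

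At the limit itself, members with exactly 3 UMIs of Gpihbp1 and Rbp7 numbered 15, 19, 14 and 9, and had Fabp4 at 8009, 17103, 16805 and 9626 CPM. Endothelial barcodes with 2 UMIs of the pair, which stayed out, numbered 19, 24, 13 and 10, with Fabp4 at 6702, 10347, 15732 and 16959 CPM. Fabp4 was higher just inside the limit in 3 libraries and just outside it in TAC-6w. Members with 10 or more UMIs of the pair had Fabp4 at 20919, 26294, 20223 and 21879 CPM.

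The members were set against the endocardial and large-vessel endothelial barcodes of the same libraries (Npr3 and Vwf at 3 or more UMIs, Gpihbp1 and Rbp7 under 3). Of 1223 genes 369 were higher in the members and 291 lower, in each library with a UMI of the gene in either class. The limits define both classes, so this is a description of the 2 classes and not a result. The members were higher in Timp4, an inhibitor of matrix metalloproteinases, at 841, 1046, 711 and 652 CPM against 6.71, 0, 37.3 and 67.3 CPM. Lpl, lipoprotein lipase, stood at 1431, 1658, 1354 and 788 CPM against 81.7, 107, 84.0 and 30.6 CPM. Cxcl12, a chemokine that guides vessel growth and leukocytes, stood at 1176, 1380, 1290 and 883 CPM against 19.0, 16.6, 88.7 and 36.7 CPM. Btnl9, Myo10, Sparcl1, Depp1, Rgcc and Cd36 were on the same side. Plvap, which forms the diaphragms of fenestrated and venous endothelium, was on the other side, at 8.35, 37.7, 13.5 and 2.03 CPM against 1009, 1201, 210 and 679 CPM. Vcam1, Cytl1, Mgp and Bgn were likewise higher in the large-vessel class. Cldn5 was higher in the members in 3 libraries but stood at 757 against 832 CPM in TAC-6w. Rgs5 headed the list for the members and Ppbp was among the leading genes of the other class, and these mark pericytes and platelets. Ppbp had no UMI in either class in TAC-6w, and 1 UMI each in the large-vessel class of sham and TAC-2w. The 22 large-vessel barcodes of TAC-4w had platelet markers at 17041 CPM, and 8 of them had 5 or more platelet UMIs. Their Npr3 stood at 51.3 CPM against 1686 in the sham class, and their Fabp4 at 5721 against 1700 CPM.

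**Figure D1:**
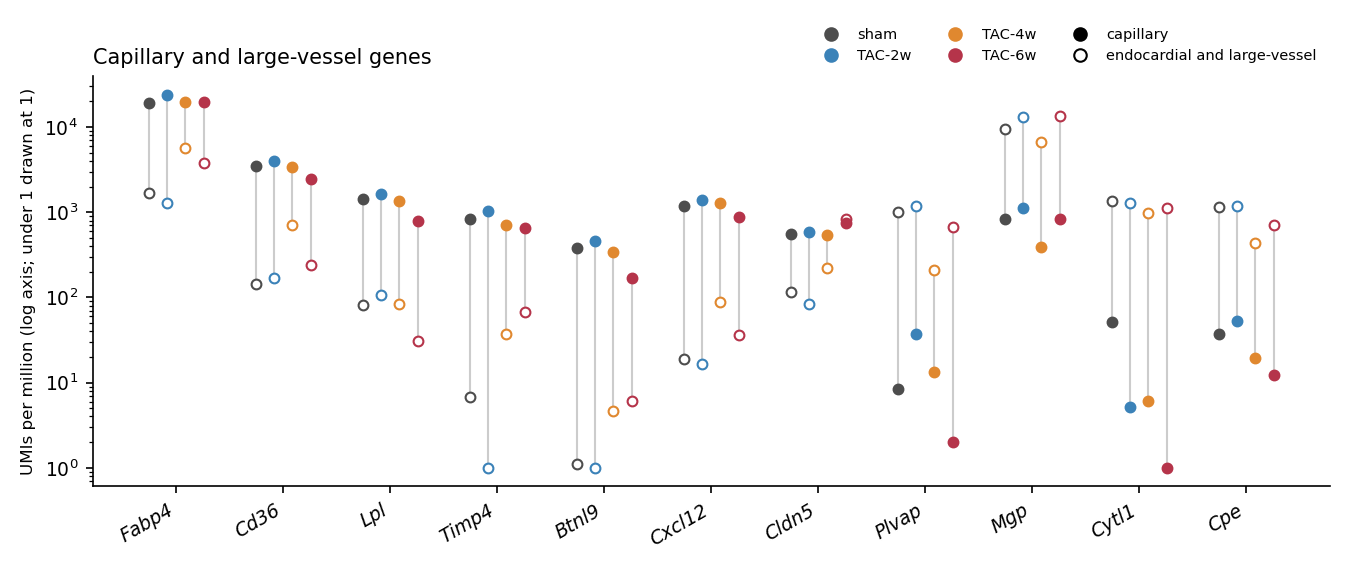
CPM (log axis) of capillary and large-vessel genes in each library, filled for capillary endothelial cells and open for endocardial and large-vessel endothelial cells. Timp4 and Btnl9 lie far above their open points in the 4 libraries, Plvap lies far below, and Cldn5 does not separate the classes in TAC-6w.

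The share of capillary endothelial cells among kept barcodes was 1.99% in sham (164 of 8228, 95% Clopper-Pearson interval 1.70 to 2.32%) and 2.08% in TAC-6w (116 of 5577, 1.72 to 2.49%). The ratio of TAC-6w to sham, 2 libraries of 1 batch, was 1.04 (0.815 to 1.33). With barcodes thinned to 2000 UMIs it was 1.57 (1.17 to 2.11), from shares of 1.29% and 2.03%. The share was 4.28% in TAC-2w (278 of 6501, 3.8 to 4.8%) and 3.93% in TAC-4w (265 of 6747, 3.48 to 4.42%), or 2.15 (1.76 to 2.62) and 1.97 (1.62 to 2.41) times the sham share. With thinned barcodes the TAC-4w ratio was 3.22 (2.54 to 4.11). These shares move with every other cell type in the suspension. Among kept barcodes without Ptprc, the pan-leukocyte gene, the shares were 2.90% in sham, 6.60% in TAC-2w, 13.7% in TAC-4w and 2.70% in TAC-6w. B cell barcodes numbered 189, 112, 1641 and 778 in the same order, and fibroblast barcodes 2565, 2057, 222 and 1262.

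Among endothelial barcodes the order was different. Members made up 35.9% of 457 endothelial barcodes in sham (31.5 to 40.5%), 53.7% of 518 in TAC-2w (49.3 to 58.0%), 55.0% of 482 in TAC-4w (50.4 to 59.5%) and 54.7% of 212 in TAC-6w (47.8 to 61.5%). The ratios to sham were 1.5 (1.23 to 1.82), 1.53 (1.26 to 1.87) and 1.52 (1.19 to 1.95). Among barcodes with a mitochondrial share under 5%, which held 28 sham members, the shares were 15.6%, 30.6%, 41.6% and 31.3%, and the TAC-4w ratio was 2.67. The endocardial and large-vessel class went the other way, with 150, 83, 22 and 29 barcodes, or 32.8%, 16.0%, 4.56% and 13.7%. Barcodes past both limits numbered 29, 33, 96 and 17, and those below both 114, 124, 99 and 50. With no limit on Npr3 and Vwf the members' share of endothelial barcodes was 42.2%, 60.0%, 74.9% and 62.7%.

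**Figure D2:**
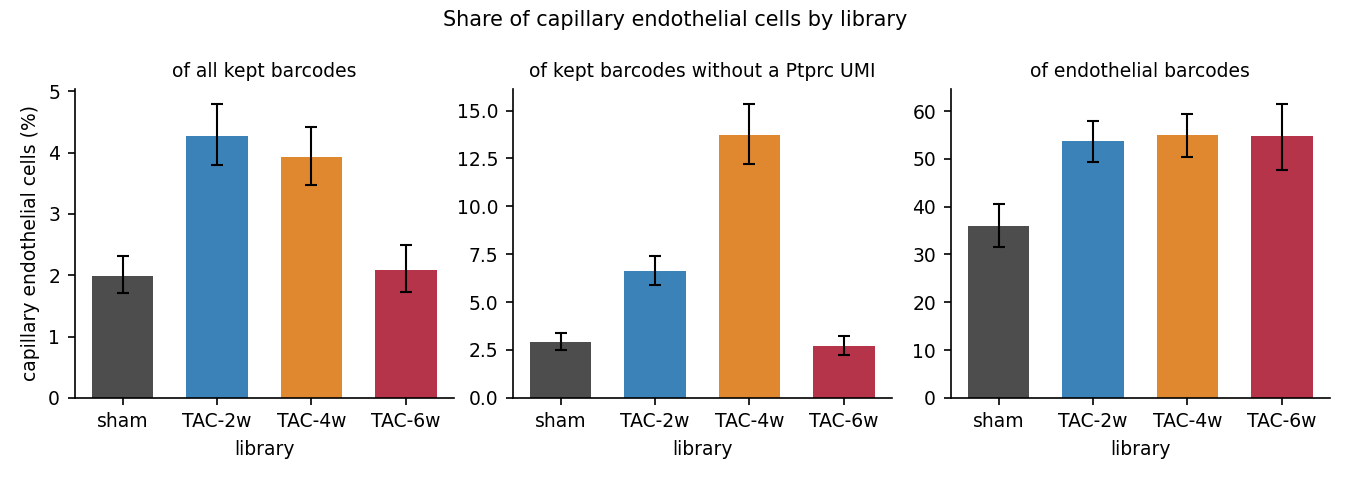
Share of capillary endothelial cells (%) by library, as a share of kept barcodes, of kept barcodes without Ptprc and of endothelial barcodes, with 95% Clopper-Pearson intervals. Of kept barcodes TAC-6w lies at the sham level, and of endothelial barcodes the 3 TAC libraries lie together at 53.7 to 55.0%, above 35.9% in sham.

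Gene levels were compared as UMIs summed over the members of a library, for 3736 genes with a mean of at least 40.6 CPM, which is 20 UMIs in the smallest of the 4 sums. The sums held 838138 UMIs in sham, 1537941 in TAC-2w, 2149312 in TAC-4w and 492665 in TAC-6w. A gene is said to be past 2-fold when its ratio to sham was at least 2 or at most 0.5. The 3 TAC libraries share the sham library as their control, so any gene with an unusual level in that 1 library moves in all 3 ratios. In TAC-6w 103 genes (2.76%) were past 2-fold higher and 152 (4.07%) lower. In TAC-4w 48 (1.28%) were higher and 76 (2.03%) lower, and in TAC-2w 10 (0.268%) were higher and 14 (0.375%) lower. The median log2 ratio over all genes was -0.02 in TAC-6w, 0.17 in TAC-4w and 0.02 in TAC-2w. Scaled to a median near 0, TAC-4w had 21 genes higher and 89 lower. Averaged over cells instead of summed, it had 87 higher and 79 lower, TAC-6w had 180 higher and 277 lower, and TAC-2w had 24 higher and 22 lower. Of the genes higher in TAC-6w, TAC-4w and TAC-2w, 25, 6 and 4 passed the floor through that library alone.

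Of the genes named for TAC-6w the highest ratio to sham was that of Cyp26b1, which encodes an enzyme that breaks down retinoic acid. Cyp26b1 stood at 34.6 CPM in sham, 12.4 in TAC-2w, 135 in TAC-4w and 453 in TAC-6w. The ratio to sham was 13.1 in TAC-6w (95% interval 8.86 to 20.0), 3.91 in TAC-4w (2.67 to 5.95) and 0.36 in TAC-2w (0.19 to 0.66). A Cyp26b1 UMI was found in 17 of 164 members in sham (10.4%), 9 of 278 in TAC-2w (3.24%), 84 of 265 in TAC-4w (31.7%) and 47 of 116 in TAC-6w (40.5%). Of B cell barcodes, which should lack it, 0 of 189, 0 of 112, 5 of 1641 and 3 of 778 had one, at median depths of 3152, 3660.5, 4355 and 2008 UMIs, where a count of 0 allows up to 1.59% and 2.68%. Among the 120, 205, 250 and 102 members of at least 2000 UMIs, thinned to that number, the shares were 7.5%, 0.98%, 18.4% and 35.3%, in the same order at equal depth. The Cyp26b1 ratio, TAC-6w to sham, was 8.24 in thinned members, 11.6 without members that carried mural RNA (5 or more UMIs of 9 mural markers) and 56.6 in the members with a mitochondrial share under 5%. In fibroblasts the Cyp26b1 ratio was 0.72 in TAC-6w and 11.5 in TAC-4w. In the class of endocardial and large-vessel endothelial cells, which rested on 3 UMIs of Cyp26b1 in sham, it was 32.8 in TAC-6w (8.19 to 188) and 19.5 in TAC-4w (4.44 to 117), so the higher level was not particular to the members. In the whole heart sections, which hold every cell type in their plane, Cyp26b1 stood at 26.8 CPM in sham, 6.17 in TAC-2w, 4.23 in TAC-4w and 0.81 in TAC-6w. All 3 TAC sections were thus lower than sham, while the members were lower in TAC-2w and higher in TAC-4w and TAC-6w.

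Further genes were higher in TAC-6w members. Plekho1, an adaptor that binds phosphoinositides, stood at 60.8 CPM in sham, 108 in TAC-2w, 163 in TAC-4w and 187 in TAC-6w. Sema3f, a secreted semaphorin that repels vessel sprouts through neuropilin-2, stood at 40.6, 61.8, 112 and 134 CPM. Both were lowest in sham and highest in TAC-6w, with TAC-6w ratios of 3.07 (2.16 to 4.41) and 3.30 (2.15 to 5.15). Jup, the junction protein plakoglobin, stood at 247, 274, 346 and 591 CPM (ratio 2.39, 1.99 to 2.87). Ifitm2 stood at 875, 1008, 1322 and 1894 CPM (2.17, 1.96 to 2.39). Tcf15, which with Meox2 drives the fatty acid transport genes of heart capillaries, stood at 299, 322, 415 and 692 CPM (2.31, 1.96 to 2.73). These 5 genes thus had the same order of libraries in the members. Atp5k, a subunit of mitochondrial ATP synthase, was high in TAC-6w alone, at 156, 196, 157 and 461 CPM, and Atox1, a copper chaperone, stood at 315, 334, 511 and 747 CPM. In fibroblasts the TAC-6w ratio was 4.04 for Jup, 2.57 for Atp5k, 2.07 for Plekho1, 1.62 for Atox1 and for Ifitm2, 1.02 for Sema3f and 0.95 for Tcf15. In the endocardial and large-vessel class the TAC-6w ratio was 5.27 for Jup, 3.44 for Atox1, 3.35 for Plekho1, 2.96 for Atp5k, 1.95 for Sema3f and 1.43 for Ifitm2, and 16.4 for Tcf15 (6.17 to 46.3), which was scarce there in sham at 4.47 CPM. These genes too were not shown to be particular to the members. Ribosomal protein genes made up 17.9% of the members' UMIs in TAC-6w, against 11.9% in sham, 11.1% in TAC-2w and 9.85% in TAC-4w. Their part in the TAC-6w ratios was not tested. Hist1h2ae passed the naming rule too, but 95% of its TAC-6w UMIs came from 1 cell.

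Lower in TAC-6w members was Kcnq1ot1, a long non-coding RNA that stays in the nucleus, at 221, 167, 204 and 62.9 CPM (ratio 0.29, 0.19 to 0.42). So was Zfp445, a zinc finger protein that guards imprints, at 60.8, 39.0, 56.8 and 6.09 CPM (0.10, 0.020 to 0.31). The wide Zfp445 interval comes from its few UMIs in TAC-6w. Plcb4, a phospholipase, stood at 595, 608, 623 and 256 CPM (ratio 0.43, 0.35 to 0.52). Btnl9, a butyrophilin-like gene typical of capillaries, stood at 379, 457, 346 and 168 CPM (0.44, 0.34 to 0.57). Each of these 4 was lowest in TAC-6w, and the other 3 libraries lay closer to one another. Klf4, a transcription factor induced by laminar flow, was lower in each later library, at 1159, 969, 738 and 572 CPM (0.49, 0.43 to 0.57). Srsf7, Top2b, St8sia4 and Gbp4 were also past 2-fold lower. In fibroblasts the TAC-6w ratio was 0 for Btnl9, 0.43 for Kcnq1ot1, 0.71 for Plcb4, 0.73 for Klf4 and 0.84 for Zfp445. In the endocardial and large-vessel class it was 0.50 for Zfp445, 0.71 for Kcnq1ot1, 0.96 for Plcb4 and 1.28 for Klf4. Btnl9 rested there on 2 UMIs in sham and 1 in TAC-6w. For Srsf7, Top2b, St8sia4 and Gbp4 the fibroblast ratios were 0.67, 0.62, 1.36 and 0.20. Those of the class were 1.025, 0.87, 5.47 and 0.38. The nuclear-retained RNAs as a list, led by Malat1, summed to 24350 CPM in sham, 23257 in TAC-2w, 23241 in TAC-4w and 15725 in TAC-6w.

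**Figure D3:**
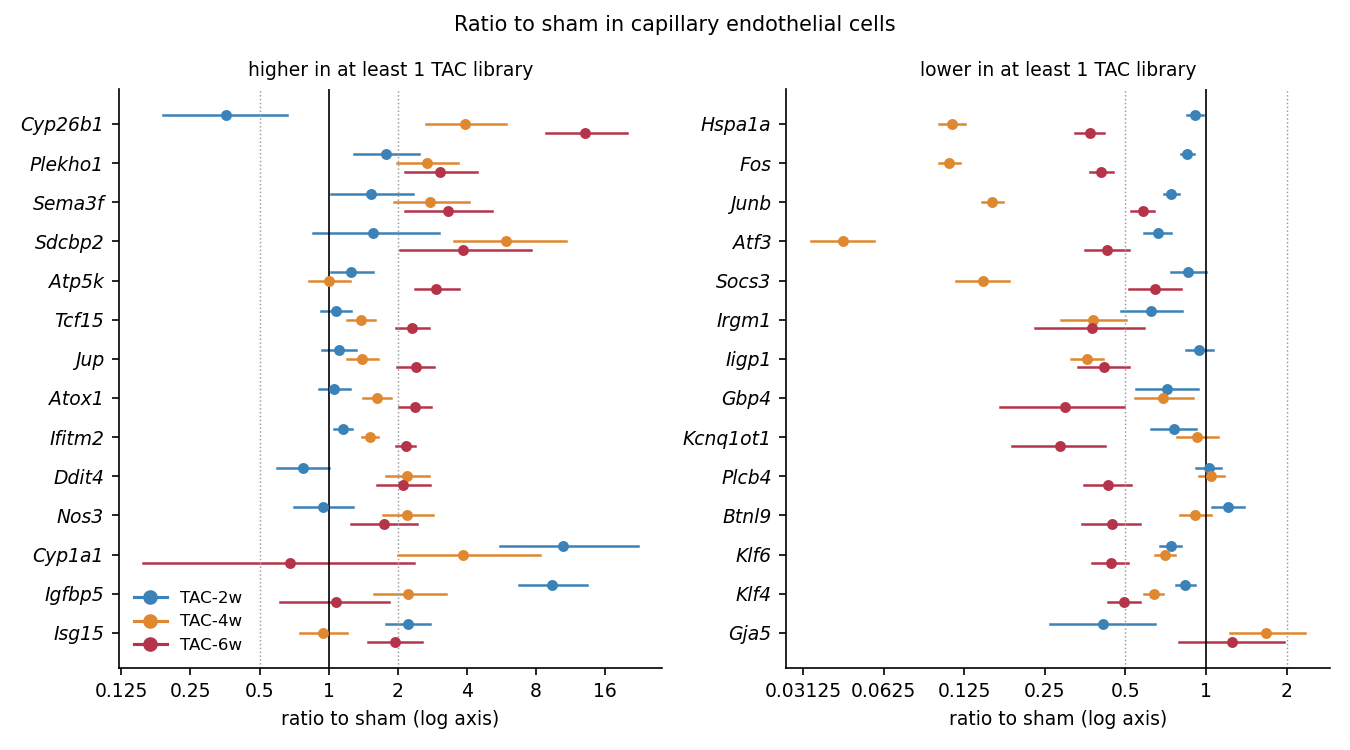
Ratio to sham (log axis) of named genes in capillary endothelial cells at TAC-2w, TAC-4w and TAC-6w, with 95% intervals for counting error; the 3 ratios of a gene share the sham library. Cyp26b1 lies at 13.1 in TAC-6w and below 1 in TAC-2w.

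In TAC-4w members Sdcbp2, a PDZ protein akin to syntenin, was 5.93 times the sham level (3.52 to 10.8), at 17.9 CPM in sham, 28.0 in TAC-2w, 106 in TAC-4w and 69.0 in TAC-6w. It passed the floor through TAC-4w alone, with a mean of 38.3 CPM in the other 3 libraries, as did Ccn3 with 32.7 CPM and Synpo with 38.1 CPM. Nos3, which makes nitric oxide in endothelium, stood at 89.5, 84.5, 197 and 156 CPM (2.20, 1.72 to 2.85). Trpv4, a calcium channel opened by stretch and flow, stood at 37.0, 37.7, 100 and 83.2 CPM (2.70, 1.85 to 4.08). These 3 were higher in TAC-4w and TAC-6w than in sham and TAC-2w, and so was Ddit4, an mTOR inhibitor induced by hypoxia and glucocorticoids, at 123, 94.9, 270 and 260 CPM (2.20, 1.78 to 2.73). Scaled to a median near 0, the Nos3 and Ddit4 ratios in TAC-4w were 1.95 each. Synpo, Ptpn11 and Bag5 were past 2-fold higher as well. Ccn3, a matricellular protein, stood at 35.8, 13.7, 105 and 48.7 CPM (2.92, 1.99 to 4.44). In fibroblasts the TAC-4w ratio was 2.67 for Synpo, 1.82 for Sdcbp2, 1.73 for Trpv4, 1.66 for Nos3 and 1.33 for Ddit4. For Ptpn11, Ccn3 and Bag5 it was 1.17, 1.15 and 1.06. In the 22 endocardial and large-vessel barcodes it was 27.8 for Ccn3, 23.6 for Sdcbp2, 3.67 for Trpv4 and 3.32 for Ptpn11. For Synpo, Nos3, Bag5 and Ddit4 it was 1.96, 1.70, 1.45 and 1.08 there. Sdcbp2, Ccn3, Trpv4, Ptpn11 and Synpo were thus not shown to be particular to the members. Lower in TAC-4w were Tpm2 and Myl9, contractile genes of mural cells, at 218, 146, 2.79 and 168 CPM and at 171, 108, 22.3 and 156 CPM. Mural markers in the same members were at 1398, 1040, 30.2 and 684 CPM, and the Tpm2 and Myl9 levels without the cells that carry them are given with the other cell types. The stress, heat shock and interferon genes among the lower ones are described with their lists.

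In TAC-2w members Cyp1a1, the enzyme induced by the aryl hydrocarbon receptor, stood at 125 CPM against 11.9 in sham, 46.1 in TAC-4w and 8.12 in TAC-6w. Against sham TAC-2w was at a ratio of 10.5 (5.57 to 22.2). Cyp1a1 passed the floor of 40.6 CPM through TAC-2w alone, since the other 3 libraries had a mean of 22.04 CPM, so that only a high TAC-2w level could bring it into the comparison. A Cyp1a1 UMI was found in 66 of 278 TAC-2w members (23.7%), 6 of 164 in sham (3.66%), 34 of 265 in TAC-4w (12.8%) and 4 of 116 in TAC-6w (3.45%). Of B cell barcodes 0 of 189 in sham, 0 of 112 in TAC-2w, 1 of 1641 in TAC-4w and 0 of 778 in TAC-6w had one, where the counts of 0 allow up to 1.59%, 2.68% and 0.386%. Igfbp5, a binding protein of insulin-like growth factors, stood at 45.3, 427, 101 and 48.7 CPM, but 2 TAC-2w members held 282 and 264 of its 656 UMIs. Sparc, a collagen-binding matrix protein, stood at 1883, 2746, 2339 and 1902 CPM (1.46, 1.38 to 1.55). Adh1, which turns retinol to retinal, was past 2-fold higher at 96.2 CPM against 46.5 in sham. Lower in TAC-2w were Vegfc, the growth factor of lymphatic vessels, at 131, 61.1, 173 and 87.3 CPM, Clu at 193, 91.0, 297 and 258 CPM, and Gja5, the arterial connexin 40, at 58.5, 24.1, 98.2 and 73.1 CPM. All 3 were lower in TAC-2w than in any other library. With a mean over cells Adh1 was at 1.62 of sham, Vegfc at 0.60 and Gja5 at 0.60, which are not past 2-fold.

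The immediate early genes, transcription factors and phosphatases switched on within minutes of a stimulus, were the list with the most genes past 2-fold in TAC-4w. All 15 listed genes were compared. None was past 2-fold higher, and 12 were lower in TAC-4w, 5 in TAC-6w (Fos, Fosb, Atf3, Klf6 and Ppp1r15a) and 0 in TAC-2w, where 2.03%, 4.07% and 0.375% of all genes were. Their median log2 ratios were -2.14, -0.79 and -0.40, where all genes had 0.17, -0.02 and 0.02. With a mean over cells in place of summed UMIs the TAC-2w median was 0.06. The genes summed to 17249 CPM in sham, 13609 in TAC-2w, 4620 in TAC-4w and 9759 in TAC-6w. The sham members were highest and the TAC-4w members lowest. Fos stood at 2576, 2193, 283 and 1047 CPM, with a ratio of 0.11 in TAC-4w (0.10 to 0.12) and 0.41 in TAC-6w (0.37 to 0.45). Junb stood at 1977, 1467, 315 and 1147 CPM. Atf3, a repressor induced by stress, stood at 665, 438, 29.3 and 284 CPM, so TAC-4w was at 0.044 of sham (0.033 to 0.057). Jun, Egr1 and Fosb had the same order of libraries. Dusp1 did not, at 663, 626, 531 and 751 CPM.

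In fibroblasts of the same libraries the immediate early sum was at 1.12 of sham in TAC-2w, 0.66 in TAC-4w and 0.71 in TAC-6w, against 0.79, 0.27 and 0.57 in the members. In the endocardial and large-vessel class it was at 1.00, 0.27 and 0.63, so the low TAC-4w level was not shown to be particular to the members. That class had 22 barcodes in TAC-4w and differed in make-up from sham. Its Npr3 stood at 51.3 CPM against 1686 in sham, and its platelet markers at 17041 against 39.2 CPM. Fos in the sections was low everywhere, at 0.73, 0.90, 2.00 and 1.12 CPM, and Atf3 stood at 1.85, 2.73, 19.8 and 2.53 CPM, highest in the TAC-4w section where the members were lowest.

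The immediate early RNA was unevenly shared among members. In sham the 15 genes took a median of 0.526% of a member's UMIs, 4.45% at the 90th percentile and 9.89% in the highest member. TAC-2w had a median of 0.703%, 4.49% at the 90th percentile and a highest value of 7.25%. In TAC-4w these were 0.293%, 1.04% and 3.42%, and in TAC-6w 0.569%, 2.34% and 5.70%. The typical TAC-6w member thus had as large a share as the typical sham member, and the sums differed through the cells with the most. In TAC-4w the typical member was lower too.

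**Figure D4:**
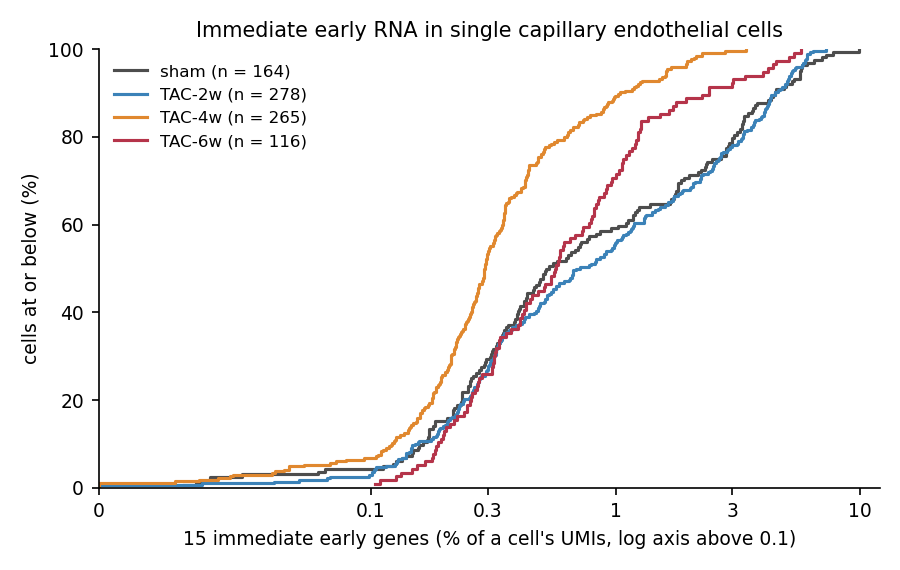
Cumulative share of members (%) against the share of a cell's UMIs from 15 immediate early genes (%), 1 line per library. The TAC-4w line lies to the left throughout most of its range, while TAC-6w and sham cross near the median and part above it.

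To show where the immediate early and interferon genes carry elements known from textbooks, the 250 bases before the start of 4 of them are printed from RefSeq (GRCm38.p6), 5′ to 3′ on the gene's strand. Capitals mark TGACG, the cAMP response element half-site, in the first pair and GAAA followed after any 2 bases by GAAA, an interferon-stimulated response element, in the second pair. Both strands were searched, overlapping matches were joined, and only the element named for each pair is in capitals. The Fos stretch is chr12:85473640-85473889 (+), Junb chr8:84978749-84978998 (-), Isg15 chr4:156200819-156201068 (-) and Irgm1 chr11:48871421-48871670 (-).
Fos: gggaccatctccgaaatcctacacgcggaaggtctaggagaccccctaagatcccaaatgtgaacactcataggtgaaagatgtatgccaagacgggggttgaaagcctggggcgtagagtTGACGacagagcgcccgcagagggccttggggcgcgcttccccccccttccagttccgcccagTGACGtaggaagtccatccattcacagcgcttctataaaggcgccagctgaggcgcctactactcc
Junb: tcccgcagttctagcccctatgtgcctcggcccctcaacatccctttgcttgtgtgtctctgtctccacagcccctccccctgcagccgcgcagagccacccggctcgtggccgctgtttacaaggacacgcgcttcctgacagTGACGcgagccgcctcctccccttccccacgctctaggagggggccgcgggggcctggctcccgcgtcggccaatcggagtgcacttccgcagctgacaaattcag
Isg15: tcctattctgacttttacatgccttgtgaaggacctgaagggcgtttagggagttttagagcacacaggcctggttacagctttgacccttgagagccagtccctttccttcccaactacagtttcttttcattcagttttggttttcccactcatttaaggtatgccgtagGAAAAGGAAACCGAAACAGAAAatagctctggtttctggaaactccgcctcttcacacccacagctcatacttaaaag
Irgm1: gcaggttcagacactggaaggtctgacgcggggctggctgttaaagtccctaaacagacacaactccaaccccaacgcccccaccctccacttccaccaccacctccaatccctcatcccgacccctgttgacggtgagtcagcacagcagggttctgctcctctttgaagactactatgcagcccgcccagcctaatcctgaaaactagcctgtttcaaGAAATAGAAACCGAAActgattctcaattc
TGACG was in 8 of the 13 immediate early genes found in the table and in 17.8% of 32851 promoters of the same length. It was also in 4 of 8 heat shock genes and 3 of 15 interferon genes found. The interferon element was in 9 of 15 interferon genes found and in 2.98% of all. A heat shock element, GAA, TTC and GAA with any 2 bases between each, was in 2 of 8 heat shock genes found and in 0.466% of all. Fos has 2 matches, the first 129 bases before its start, and Irgm1 has 2, the first 30 bases before. A listed gene was counted if any of its promoters held the element, whereas the shares of all count single promoters. The 2 are therefore not in like units. A match is a description of the letters in this window.

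Of 11 heat shock genes, 4 were past 2-fold lower in TAC-4w (Hspa1a, Hspa1b, Dnajb1 and Hsph1), 5 in TAC-6w (Hspa1a, Dnajb1, Hsph1, Hsp90aa1 and Hspd1) and none in TAC-2w, and none was higher. Of all compared genes 2.03% were past 2-fold lower in TAC-4w, 4.07% in TAC-6w and 0.375% in TAC-2w. The median log2 ratios were -0.85 in TAC-4w, -0.98 in TAC-6w and -0.21 in TAC-2w. Hspa1a, the inducible HSP70 chaperone, stood at 1670 CPM in sham, 1520 in TAC-2w, 188 in TAC-4w and 615 in TAC-6w. Its partner Dnajb1 stood at 202, 168, 31.6 and 56.8 CPM. Both were high in sham and TAC-2w and lower in the other 2 libraries. Hspb1, a small heat shock protein, stood at 1416, 1209, 784 and 1364 CPM and Dnaja1, another HSP70 partner, at 637, 566, 608 and 369 CPM, each low in 1 library only. Scaled to a median near 0, Hspb1 and Hsp90aa1 were past 2-fold lower in TAC-4w too, at 0.49 each. Hsp90ab1, a chaperone made at all times, was nearly level at 1772, 1531, 1989 and 1735 CPM. The list summed to 9043, 8127, 5378 and 6238 CPM, and the fibroblast sum was at 0.93, 0.64 and 0.82 of sham in TAC-2w, TAC-4w and TAC-6w. In the endocardial and large-vessel class it was at 1.05, 0.61 and 0.81.

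Of 20 listed interferon genes 18 were compared. In TAC-2w 1 was past 2-fold higher, Isg15, a ubiquitin-like modifier, at 125 CPM in sham, 277 in TAC-2w, 118 in TAC-4w and 244 in TAC-6w (2.21 in TAC-2w, 1.78 to 2.76). In TAC-4w 4 were lower, Iigp1, Irgm1, Irf1 and Ifit1, and in TAC-6w also 4, Iigp1, Irgm1, Gbp4 and Ifit2. Of all compared genes 0.268% were higher in TAC-2w, and 2.03% and 4.07% were lower in TAC-4w and TAC-6w. The median log2 ratios of the interferon response list were 0.12, -0.53 and -0.50 in TAC-2w, TAC-4w and TAC-6w. Irf1 in TAC-4w was at 0.57 without members that carried mural RNA. Isg15 in TAC-6w was at 1.94 in the sums. It was past 2-fold higher at 2.14 with a mean over cells and 2.05 without members that carried mural RNA. Gbp2 in TAC-6w was at 0.51 in the sums and 0.46 with a mean over cells. In members with a mitochondrial share under 5%, where 6 of the list's genes were compared, the TAC-6w median was 0.22. Iigp1, a GTPase induced by interferon-gamma, stood at 519, 490, 187 and 215 CPM, and Irgm1, a GTPase of the same family, at 130, 81.3, 49.3 and 48.7 CPM. Both were high in sham and lower in TAC-4w and TAC-6w. Bst2 stood at 518, 588, 520 and 710 CPM. The sections gave another order, with Iigp1 at 22.6, 17.5, 123 and 25.7 CPM and Irgm1 at 9.66, 9.13, 61.7 and 21.5 CPM, highest at TAC-4w. The fibroblast sum of the list was at 0.97, 0.58 and 0.65 of sham, that of the endocardial and large-vessel class at 0.88, 0.59 and 0.70, and that of the members at 1.05, 0.68 and 0.80. None of the 10 genes of MHC class I presentation was past 2-fold in any TAC library, and their median log2 ratios were -0.11, -0.23 and -0.19. With a mean over cells Tap1 in TAC-6w was at 0.39, past 2-fold lower, where the sums gave 0.60.

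Of 13 fatty acid genes 9 were compared. None was past 2-fold in TAC-2w or TAC-4w, and in TAC-6w Tcf15 was higher and Pparg lower, where 2.76% of all compared genes were higher and 4.07% lower. Cd36, the fatty acid translocase, stood at 3509 CPM in sham, 3990 in TAC-2w, 3385 in TAC-4w and 2432 in TAC-6w. Lpl stood at 1431, 1658, 1354 and 788 CPM, and Pparg, the nuclear receptor that drives both, at 78.7, 119, 79.1 and 30.4 CPM. These 3 were highest in TAC-2w and lowest in TAC-6w, with TAC-6w ratios of 0.69 (0.65 to 0.74) for Cd36, 0.55 (0.49 to 0.62) for Lpl and 0.39 (0.21 to 0.69) for Pparg. Lpl in TAC-6w was past 2-fold lower in other settings. It was at 0.43 with a mean over cells and 0.48 without members that carried mural RNA. Fabp5 stood at 1187, 1566, 933 and 1313 CPM. Aqp1, the water channel, went the other way at 1469, 1554, 1703 and 2328 CPM (1.59 in TAC-6w, 1.46 to 1.72), and Car4, a carbonic anhydrase of the capillary surface, was nearly level at 202, 239, 220 and 203 CPM. The list summed to 8470, 9794, 8446 and 8074 CPM.

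None of 14 growth factor receptors was past 2-fold in any TAC library, with median log2 ratios of 0.15 in TAC-2w, 0.38 in TAC-4w and 0.13 in TAC-6w. Tie1, an orphan receptor of the angiopoietin system, stood at 226, 310, 337 and 357 CPM, and Eng, a TGF-beta co-receptor, at 780, 870, 1044 and 1080 CPM. None of 15 junction and surface genes was past 2-fold either, with medians of 0.07, 0.44 and 0.13. All 15 were above sham in TAC-4w, where 68.7% of all compared genes were. In that library Ly6c1, a surface antigen of mouse endothelium, stood at 4979 CPM against 3116 in sham, 2938 in TAC-2w and 4520 in TAC-6w. Of 14 sprouting genes 7 were compared and none was past 2-fold. With a mean over cells Pgf in TAC-2w was at 0.46, past 2-fold lower, where the sums gave 0.70. Of 14 basement membrane genes none was past 2-fold in TAC-2w, Lama5 was higher and Nid2 lower in TAC-4w, and Lama5 and Col15a1 were higher in TAC-6w. Col4a1, the main collagen of the capillary basement membrane, stood at 1598, 2016, 2022 and 1784 CPM. Of 8 shear stress genes Nos3 was past 2-fold higher in TAC-4w and Klf4 lower in TAC-6w. Of all compared genes 1.28% were higher and 2.03% lower in TAC-4w, and 2.76% and 4.07% in TAC-6w. Scaled to a median near 0, Nos3 was at 1.95 and Klf4 at 0.502, neither past 2-fold. With a mean over cells Nos3 was at 1.71, Klf4 at 0.55, Nid2 in TAC-4w at 0.57, and Lama5 and Col15a1 in TAC-6w at 1.87 and 1.43. Klf2, the main flow-induced factor, stood at 1947, 1665, 1621 and 1565 CPM.

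Of 13 TGF-beta and mesenchymal genes compared, S100a6 and Fn1 were past 2-fold higher and Ccn1, Ccn2 and Tagln lower in TAC-4w, and in TAC-6w S100a6 was higher and Id2, Ccn1 and Ccn2 lower. Tagln is a contractile gene that is also one of the 9 mural markers, which in all members stood at 30.2 CPM in TAC-4w against 1398 in sham. Without the members that carried mural RNA Tagln was at 0.77 in TAC-4w. It was then past 2-fold higher in TAC-2w and TAC-6w, at 3.45 and 2.28, where all members gave 0.84 and 0.55. Without the members that carried mural RNA Ccn2 was at 0.51 in TAC-4w and 0.52 in TAC-6w. With a mean over cells Ccn2 was at 2.04 in TAC-2w and 0.67 in TAC-4w, where the sums gave 1.66 and 0.36. In that setting Id2 in TAC-4w was at 0.42 and Tgfb1 in TAC-6w at 2.52, where the sums gave 0.54 and 1.93. Fn1 in TAC-4w was at 1.79 when scaled to a median near 0. Of all compared genes 1.28% were higher and 2.03% lower in TAC-4w, and 2.76% and 4.07% in TAC-6w. S100a6, a small calcium-binding protein, stood at 344 CPM in sham, 316 in TAC-2w, 948 in TAC-4w and 1206 in TAC-6w (3.51 in TAC-6w, 3.04 to 4.05). In fibroblasts its ratio was 1.63 in TAC-6w and 0.78 in TAC-4w, and in the endocardial and large-vessel class 0.90 and 1.66. Of 6 inflammatory adhesion genes compared, Icam1, a receptor for leukocytes, Cxcl1 and Socs3 were past 2-fold lower in TAC-4w. Icam1 stood at 142, 112, 64.7 and 89.3 CPM and Socs3, a brake on cytokine signalling, at 352, 302, 51.6 and 227 CPM. Lcn2 passed the floor through TAC-2w, at 1.19, 149, 44.7 and 6.09 CPM. It rested on 1 UMI in sham and 3 in TAC-6w, with a UMI in 1, 7, 23 and 2 members, so its ratios are not read. Cdkn1a, a cell cycle inhibitor, stood at 822, 583, 1092 and 848 CPM.

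The members were not uniform along the arterial side. Members with 3 or more UMIs of 6 arterial genes (Stmn2, Sema3g, Gja5, Gja4, Hey1 and Jag2) numbered 42 of 164 in sham (25.6%, 19.1 to 33.0%), 64 of 278 in TAC-2w (23%), 125 of 265 in TAC-4w (47.2%, 41.0 to 53.4%) and 37 of 116 in TAC-6w (31.9%). Among the 120, 205, 250 and 102 members of at least 2000 UMIs, thinned to that number, these were 17.5% (11.2 to 25.5%), 16.1%, 26% (20.7 to 31.9%) and 25.5%, so that the intervals of sham and TAC-4w overlapped at equal depth. Sema3g, a semaphorin of arterial endothelium, stood at 193, 131, 349 and 242 CPM, and Jag1, a Notch ligand, at 81.1, 48.1, 122 and 122 CPM. All 14 arterial and Notch genes were compared. Their median log2 ratio was -0.39 in TAC-2w, 0.44 in TAC-4w and 0.14 in TAC-6w, with Gja5 and Edn1 past 2-fold lower in TAC-2w, Mgp in TAC-4w and Edn1 in TAC-6w. Of all compared genes 0.375%, 2.03% and 4.07% were lower in these libraries. With a mean over cells Gja5 in TAC-2w was at 0.60 and Edn1 in TAC-6w at 0.52. Without members that carried mural RNA Edn1 in TAC-2w was at 0.55. Other genes became past 2-fold in these settings. With a mean over cells Gja5 was at 2.77 in TAC-4w and 2.59 in TAC-6w, and Efnb2 at 0.39 in TAC-6w. Without members that carried mural RNA Gja5, Fbln5 and Sema3g were at 2.15, 2.22 and 2.48 in TAC-4w, and Gja4 at 2.28 in TAC-6w. Mgp in TAC-2w was then at 0.37, where all members gave 1.34. Over all members 1 of the 14, Mgp, was above sham in TAC-2w, where 53.2% of all compared genes were. In TAC-4w 10 were, where 68.7% of all were.

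RNA of other cell types was present in the members and differed between libraries. Red blood cell genes, led by Hbb-bs, summed to 29337 CPM in sham, 15876 in TAC-2w, 7074 in TAC-4w and 252 in TAC-6w, and 102 of 164 sham members had 5 or more of these UMIs against 1 of 116 in TAC-6w. Mural genes, led by Rgs5 in 3 libraries and Acta2 in TAC-6w, summed to 1398, 1040, 30.2 and 684 CPM, with Kcnj8 and Vtn at 0 in TAC-4w and TAC-6w. Members with 5 or more mural UMIs numbered 8, 8, 1 and 1. Fibroblast genes, led by Gsn, summed to 1311, 988, 47.9 and 828 CPM, and cardiomyocyte genes to 779, 692, 54.0 and 106 CPM. These 4 lists were highest in sham. Neutrophil and platelet genes were highest in TAC-4w instead, at 17.9, 8.45, 269 and 16.2 CPM and at 38.2, 59.2, 255 and 28.4 CPM. Macrophage genes summed to 159, 291, 61.9 and 69.0 CPM, with Adgre1 at 0 in 3 libraries. T and NK cell genes summed to 4.77, 3.90, 7.91 and 0 CPM.

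Some of the gene levels above move with these. Without the members that had 5 or more mural UMIs, a setting chosen after seeing the data, Tpm2 in TAC-4w stood at 0.34 of sham where it was 0.013 over all members, and Myl9 at 3.02 where it was 0.13. B cell genes summed to 9.54, 2.60, 87.5 and 112 CPM, with Ms4a1 at 0 in 3 libraries. Cd74, the invariant chain of MHC class II and abundant in B cells, stood at 53.7, 71.5, 141 and 207 CPM, with a UMI in 20.1%, 28.4%, 32.8% and 13.8% of members. With a mean over cells the Cd74 ratio to sham was 1.67 in TAC-4w and 1.98 in TAC-6w, where the sums gave 2.62 and 3.86. The part of B cell RNA in the Cd74 levels was not tested. Lcn2 is abundant in neutrophils, and the part of their RNA in its levels was not tested either. Doublets were not removed by the limits, and the highest 3.2% of Scrublet scores in each library held 2, 4, 9 and 5 members.

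**Figure D5:**
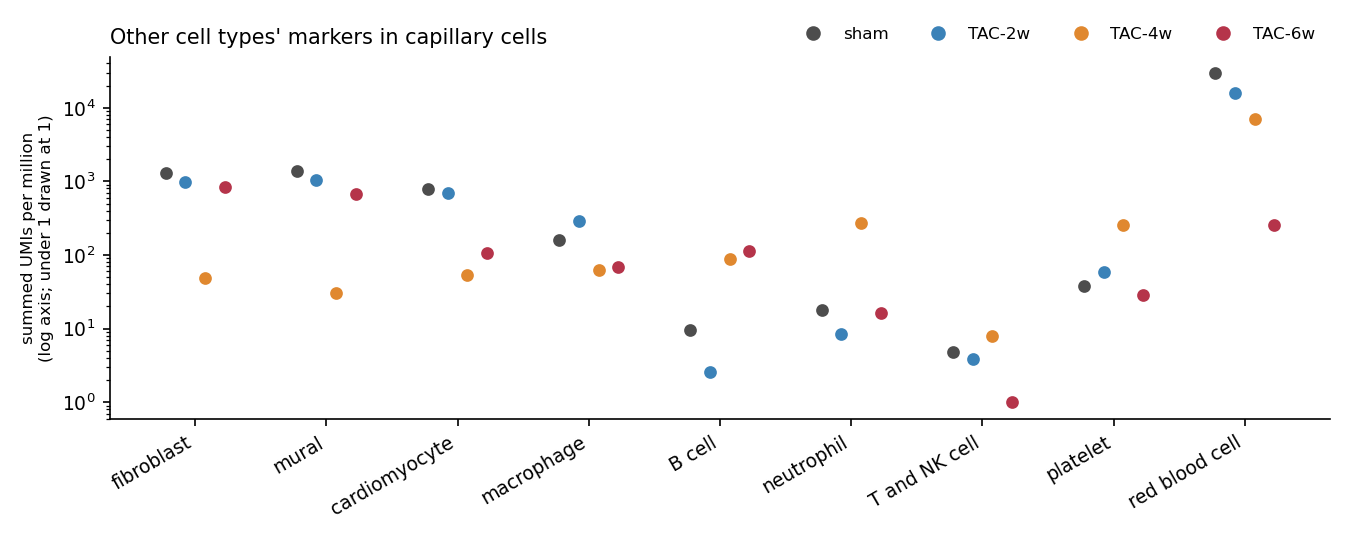
Summed CPM (log axis, values under 1 drawn at 1) of the markers of 9 other cell types in capillary endothelial cells, 1 point per library. Red blood cell genes lie at 29337 in sham and 252 in TAC-6w, and mural, fibroblast and cardiomyocyte genes are lowest in TAC-4w.

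In the sections capillary genes were read over all spots, 1 section per group with 1676, 2063, 1228 and 2193 spots. Fewer cells of a type and less RNA per cell cannot be told apart there. By the labels the sham and TAC-2w sections share a batch. Gpihbp1 stood at 163 CPM in sham, 148 in TAC-2w, 177 in TAC-4w and 211 in TAC-6w. Rbp7 stood at 36.1, 36.0, 70.6 and 65.3 CPM, and Fabp4 at 885, 913, 1325 and 1645 CPM. These 3 genes were all highest or nearly so in the later sections, with Fabp4 at 1.86 of sham in TAC-6w (1.83 to 1.89). Cldn5 stood at 24.3, 23.4, 18.4 and 46.0 CPM and Kdr at 67.2, 53.3, 50.5 and 105 CPM, lowest in TAC-4w and highest in TAC-6w. Mitochondrial and ribosomal-RNA-like features took 51.8%, 43.7%, 42.4% and 44.4% of the UMIs, and with them left out of the total Gpihbp1 in TAC-4w was at 0.91 of sham instead of 1.09, and Fabp4 in TAC-2w at 0.88 instead of 1.03. Plekho1 was ordered as in the members, at 19.2, 20.7, 32.6 and 36.3 CPM, while Tcf15, at 20.2, 29.0, 17.1 and 21.0 CPM, was not.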

How the data were processed

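UMI counts per gene and barcode were deposited by the authors as filtered matrices, with Cell Ranger 7.0.0 and Space Ranger 1.3.1 in the submitters' processing notes, 6.0.0 and 1.2.0 in the file headers, and build mm10. Computations used Python 3.11.15 with matplotlib 3.10.9, scanpy 1.11.5 (Scrublet), pandas 2.3.3, scipy 1.17.1 and numpy 2.4.6. The members and the gene lists were chosen with earlier results of these data known. UMIs were summed over the members of a library, divided by their total and given per 1000000 (CPM). Ratios to sham carry exact conditional binomial 95% intervals, shares Clopper-Pearson 95% intervals, and CPM values rest on the UMI sums given. The ratio and its interval were run on simulated sums that held counting error only, which is what the interval assumes. Uneven spread of a gene's UMIs over cells was not simulated, so that run cannot show how the intervals hold under it. The 9 genes of the limits were left out of the comparison. Named genes were the 12 with the highest and the 12 with the lowest interval bound nearest 1 for each TAC library, among 2717 genes at least as high in the members as in non-endothelial barcodes, leaving out markers of other cell types, ribosomal, mitochondrial and predicted genes, beside the genes of the lists. Genes named for the class contrast were the 15 at each end by the smallest of 4 within-library ratios. B cell barcodes had Cd79a and Ms4a1 together at 2 or more UMIs and no Pecam1, Cdh5 or Kdr. Fibroblast barcodes had Pdgfra at 2 or more UMIs and no Ptprc, Pecam1, Cdh5 or Kdr. Endothelial barcodes had Pecam1, Cdh5 and Kdr together at 2 or more, and no Ptprc or Pdgfra. Alternatives changed the scaling, the filters, the limits, the floor on low counts, the depth and the doublets. Promoter stretches came from RefSeq. Spot positions and images were not used.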

Additional observations from a re-analysis of the deposited data

How the results depend on the processing

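Of the alternative values of the shares 28 stayed within their interval and 8 moved, and no ratio to sham changed direction. With a mitochondrial share under 5% the share of kept barcodes was 2.76 times sham in TAC-4w and 1.36 in TAC-6w, and the share of endothelial barcodes 1.97, 2.67 and 2.01 in TAC-2w, TAC-4w and TAC-6w. With barcodes thinned to 2000 UMIs these were 3.22 and 1.57, and 1.90 in TAC-4w. Counts of genes past 2-fold moved by over 1.5 times in 28 values and by less in 56, and counts of immediate early genes by less in all 28. TAC-4w had 21 higher with median-of-ratios scaling. With a mean over cells TAC-2w had 24 higher and 22 lower, TAC-4w 87 higher, and TAC-6w 180 higher and 277 lower. Thinned members gave 7, 42 and 74 lower in TAC-2w, TAC-4w and TAC-6w, of 1543 genes, or 0.454%, 2.72% and 4.80%. With the mitochondrial share under 5%, 28 sham members and 1520 genes were left. TAC-2w then had 40 higher (2.63%) and 72 lower (4.74%), and TAC-4w 77 (5.07%) and 56 (3.68%). TAC-6w had 115 higher (7.57%) and 77 lower (5.07%), where the main setting had 103 (2.76%) and 152 (4.07%). TAC-2w had 6 higher without the fifth of members with the most RNA of other cell types, and 6 with Gpihbp1 and Rbp7 at 5 or more. A floor of 50 UMIs left 1510 genes. It gave 2 higher and 4 lower in TAC-2w, 17 and 45 in TAC-4w, and 39 and 39 in TAC-6w. As shares these were 0.132% and 0.265%, 1.13% and 2.98%, and 2.58% and 2.58%. The main setting had 0.268% and 0.375%, 1.28% and 2.03%, and 2.76% and 4.07%. No floor (up to 14609 genes) gave 2461 and 1468, 2470 and 2265, and 1714 and 3080. Without members with 5 or more mural UMIs, chosen after seeing the data, 3650 genes were left. TAC-4w then had 79 higher (2.16%) and 60 lower (1.64%), where the main setting had 48 higher and 76 lower. Without the fifth of members with the most RNA of other cell types, TAC-4w had 61 higher (1.97%) and 52 lower (1.68%) of 3100. The excess of lower over higher genes in TAC-4w was thus absent without these cells. The other settings chosen after seeing the data left out the top member of each gene, members with lymphatic UMIs, or the immediate early and heat shock genes from the total.

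Of the values of named genes 909 stayed within their interval, 93 moved and 4 changed direction. The 909 include 72 values with no floor and 72 with a floor of 50 UMIs, where a gene's own ratio cannot change. With the mitochondrial share under 5%, 38 moved, 1 changed direction and 33 stayed. With thinned members 22 moved and 48 stayed. Hist1h2ae in TAC-6w was at 0.48 with the mitochondrial share under 5%. Rrad in TAC-2w was at 2.39 both without the fifth of members with the most RNA of other cell types and without members with mural UMIs, and Myl9 in TAC-4w at 3.02 without the latter. The Cyp26b1 ratio, TAC-6w to sham, ran from 8.24 with thinned members to 56.6 with the mitochondrial share under 5%. The immediate early median in TAC-4w ran from -1.81 to -2.83 and in TAC-6w from -0.55 to -0.99. In TAC-2w it was 0.06 with a mean over cells. The interferon median in TAC-6w was 0.22 with the mitochondrial share under 5%. Where no cause is shown by the setting itself, the cause was not tested.

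In the sections, leaving mitochondrial and rRNA-like features out of the total gave ratios to sham in TAC-2w, TAC-4w and TAC-6w of 0.77, 0.91 and 1.12 for Gpihbp1, 0.85, 1.63 and 1.57 for Rbp7, 0.88, 1.25 and 1.61 for Fabp4, 0.83, 0.63 and 1.64 for Cldn5, and 0.68, 0.63 and 1.36 for Kdr. No paired analysis was possible because each group has 1 library and no test was run. The summed UMIs are fewest in TAC-6w and set the floor of the comparison, while the median UMI count per member is lowest in TAC-2w.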

Other observations

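Members in cycle were few. With 3 or more UMIs of Mki67, Top2a, Ccnb1, Cdk1, Ccna2 and Birc5 summed there were 3 of 164 in sham (1.83%), 6 of 278 in TAC-2w (2.16%), 3 of 265 in TAC-4w (1.13%) and 3 of 116 in TAC-6w (2.59%), and their intervals overlapped. Members with 2 or more UMIs of Prox1, Pdpn, Reln, Mmrn1 and Lyve1, genes of lymphatic endothelium, numbered 1, 5, 2 and 0. The lymphatic list summed to 64.4 CPM in sham, 460 in TAC-2w, 85.6 in TAC-4w and 67.0 in TAC-6w, and 323 of the 328 UMIs of Ccl21a in TAC-2w lay in 1 member.

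Lars2, the mitochondrial leucyl-tRNA synthetase, stood at 1872 CPM in sham, 1661 in TAC-2w, 1795 in TAC-4w and 1206 in TAC-6w members. Of 8 glucocorticoid response and metallothionein genes compared, 3 were past 2-fold lower in TAC-4w, Mt1, Cebpb and Cebpd, and none in the other libraries, where 2.03% of all compared genes were lower in TAC-4w, 4.07% in TAC-6w and 0.375% in TAC-2w. The Cebpb ratio in TAC-4w was 0.41, 0.62 with a mean over cells and 1.09 without members that carried mural RNA. Without those members Mt1 in TAC-2w was at 0.33 of sham, past 2-fold lower, where all members gave 0.63. Mt1, a metal-binding protein, stood at 289, 181, 47.0 and 199 CPM. Of 4 circadian clock genes compared, Nr1d1 was past 2-fold lower in TAC-6w. Of 8 hypoxia and glycolysis genes, Eno1 was past 2-fold higher in TAC-6w, where 2.76% of all compared genes were. With a mean over cells Eno1 was at 2.02 in TAC-4w too, where the sums gave 1.67. None of 3 cell cycle genes was past 2-fold. Venous, endocardial and lymphatic lists had 2, 3 and 1 genes compared, of which Mgp, an endocardial and arterial gene, was past 2-fold lower in TAC-4w.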
